A study of Mus musculus with 12 samples.

Results

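Among the 21429 genes counted in pachytene spermatocytes and round spermatids of the mouse testis, 49 had lower RNA levels after loss of Hdac3 at both stages. They were chosen by their levels in CPM (the raw count scaled to the library's total), and 3 conditions had to hold in both stages. The mean of the control libraries was at least 10 CPM, the control mean was at least 1.8 times the knockout mean, and every knockout library lay below every control library. Of the 21429 genes, 7634 reached 10 CPM in the controls of both stages, and the 49 genes are 0.642% of those. The differences between knockout and control at either stage are therefore what selected the genes: they are described below and not tested.

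The 12 libraries of total RNA fall into 4 groups of 3, described as biological triplicates: knockout (KO) round spermatids (RS), control RS, KO pachytene spermatocytes (PS) and control PS. KO mice carried Stra8-cre with a floxed and a null allele, written Stra8-cre/Hdac3fl/-. Control mice were titled Hdac3fl/+ and labelled wild type, with no Cre named for them. Stra8-cre makes Cre recombinase in germ cells ahead of meiosis, so somatic cells that come along in a fraction are not its target. By the titles such cells still differ between genotypes in the allele beside the floxed one, null in KO and + in control mice. PS are germ cells in the long meiotic prophase, and RS are the haploid cells formed by the divisions that follow it. The labels state neither the age of the mice nor whether animals were pooled. Replicates 1 and 3 carry those numbers in the titles, and the last library of every group, which matches no single title, is called the remaining replicate. Library depth was 11205732 to 17467583 gene counts, and 3 counts, taken as the detection floor, equalled 0.172 to 0.268 CPM.

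HDAC3 removes acetyl groups from histones as the catalytic part of the nuclear receptor corepressor complexes NCoR and SMRT, and is known chiefly as a repressor. In the testis, many genes of the acrosome, the enzyme-filled vesicle that caps the sperm head, start to be transcribed late in meiosis and are most active in round spermatids. Their RNA can be stored for days before it is translated. In bulk libraries fewer cells of a type and less RNA per cell cannot be told apart.

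The 49 genes comprised Hdac3 itself, 38 other protein-coding genes and 10 long non-coding RNAs, on 17 chromosomes. None was on the X, beside 1.06% of the genes at 10 CPM or more in both controls, so nothing is read from this. Their promoters are of interest because spermatid genes are often driven by CREM, a factor that binds the cAMP response element. Windows of 250 bases before to 50 bases after the transcription start were taken from RefSeq on GRCm38.p6, where 36 of the 49 genes matched, with 48 windows. The full element TGACGTCA, searched on both strands as all motifs were, was found in 0 of the 48 windows, against 1.79% of all 32851 windows of the table and 3.76% of the windows of genes at 10 CPM or more. Its shorter core TGACG, which the full element contains, was found in 2 windows (4.17%), against 20.8% of all windows and 33.2% of the windows of genes at 10 CPM or more. These 2 windows are shown, 5′ to 3′ on the gene's strand, with the core in capitals as it reads there (CGTCA, the reverse complement). The first belongs to Lyzl4, a lysozyme-like gene, at chr9:121586912-121587211 on the minus strand, with the site's first base at position -111 from the start. This start lies inside the gene's span (121577841 to 121642121) and not at the span's 5′ end. The second belongs to Cct8l1, a chaperonin-like gene, at chr5:25515817-25516116 on the plus strand, with the site's first base at position -192.
Lyzl4: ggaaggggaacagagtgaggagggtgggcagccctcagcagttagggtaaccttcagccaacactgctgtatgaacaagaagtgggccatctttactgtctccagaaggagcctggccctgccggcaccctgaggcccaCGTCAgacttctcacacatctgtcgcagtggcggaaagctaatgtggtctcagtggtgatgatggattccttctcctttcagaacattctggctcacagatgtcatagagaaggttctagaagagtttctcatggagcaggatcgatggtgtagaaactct
Cct8l1: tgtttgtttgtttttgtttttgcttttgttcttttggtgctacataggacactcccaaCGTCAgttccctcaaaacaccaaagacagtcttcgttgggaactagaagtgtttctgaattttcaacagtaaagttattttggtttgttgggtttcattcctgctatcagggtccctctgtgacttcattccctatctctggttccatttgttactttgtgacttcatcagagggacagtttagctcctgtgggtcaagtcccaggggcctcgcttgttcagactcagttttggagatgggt

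Shares of the other motifs searched are set beside those of all windows and of the windows of genes at 10 CPM or more. AACNGNC, a MYB-type motif, was in 21 of the 48 windows (43.8%), against 32.8% of all and 36.5% at 10 CPM or more. AGGTCA, bound by nuclear receptors, was in 11 (22.9%), against 16.3% and 13.5%. CCAAT was in 18 (37.5%), against 37.4% and 38.6%, and GTTGCC, from the X-box of RFX factors, was in 5 (10.4%), against 12.5% and 14.9%. TATAAA was in 5 (10.4%), below the 13.6% of all windows and above the 6.65% at 10 CPM or more. ACAATGG, a SOX motif, was in 3 (6.25%), against 3.66% and 2.52%. A gene can have more than 1 window here, and a match or its absence describes the letters of the window alone.

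As a group the 49 genes stood about 2 times lower in KO than in control libraries at both stages. Their summed level in replicate 1, replicate 3 and the remaining replicate was 1789, 2150 and 1838 CPM in KO RS, against 3110, 4436 and 3662 CPM in control RS. In PS the sums were 559, 683.5 and 801.7 CPM in KO, against 1534, 1870 and 1392 CPM in control. The median ratio of control to KO over the 49 genes was 1.93 in RS, with a range of 1.802 to 2.95, and 2.35 in PS, with a range of 1.86 to 4.20. For 45 of the genes the RS ratio was the smaller of the 2, so the RS threshold did most of the selecting: of the 7634 genes, 511 had a ratio of 1.8 or more in PS and 82 in RS.

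**Figure D1:**
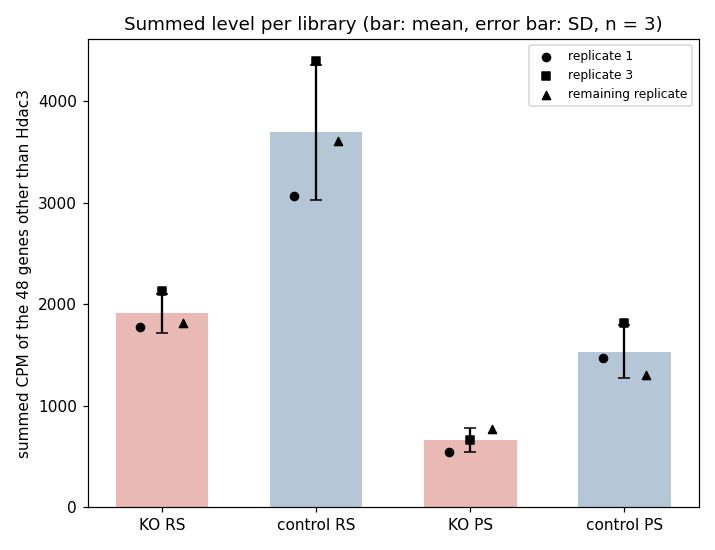
Summed CPM of the 48 genes other than Hdac3 in each library (y axis) for KO RS, control RS, KO PS and control PS; bars are means, error bars SD (n = 3), and point shapes mark the replicates. Every KO library lies below every control library of its stage, which the rule requires of each gene, and the RS libraries lie above the PS libraries of the same genotype.

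In the edgeR fit over all genes, 49 of the 49 were called lower in KO RS and 45 of the 49 in KO PS at an adjusted p below 0.05. Over all genes tested, 12.4% were called lower and 18.7% higher in KO RS, and 4.5% lower and 0.91% higher in KO PS, but nothing is read from the members' counts, since the rule used these contrasts. The 4 not called in PS were Acyp2, Pdzk1ip1, 4930558K02Rik and 4933416O17Rik, with adjusted p of 0.0503 to 0.0881 in edgeR. KO libraries lay wholly below control libraries for 15.2% of the 7634 genes in RS and for 19.8% in PS. The median log2 fold change of KO over control was -1.21 in RS (range -1.84 to -1.10) and -1.22 in PS (range -2.04 to -0.87) for the members, beside -0.20 in RS and 0.0014 in PS for the 7634 genes. The RS fold changes exceed the CPM ratios because of scaling. With library size alone the median change of all genes tested in RS was 0.27 on the log2 scale, and with TMM, edgeR's scaling, it was 0.0145. Without the 4 remaining libraries 0 of the 49 were called in RS (adjusted p 0.0793 to 0.127, edgeR), where 0 genes of the whole table were, although all 49 were still lower. The authors' deposited table gave all 49 a negative log2 fold change with an adjusted p under 0.05 at both stages, with medians of -1.35 in RS and -1.30 in PS.

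**Figure D2:**
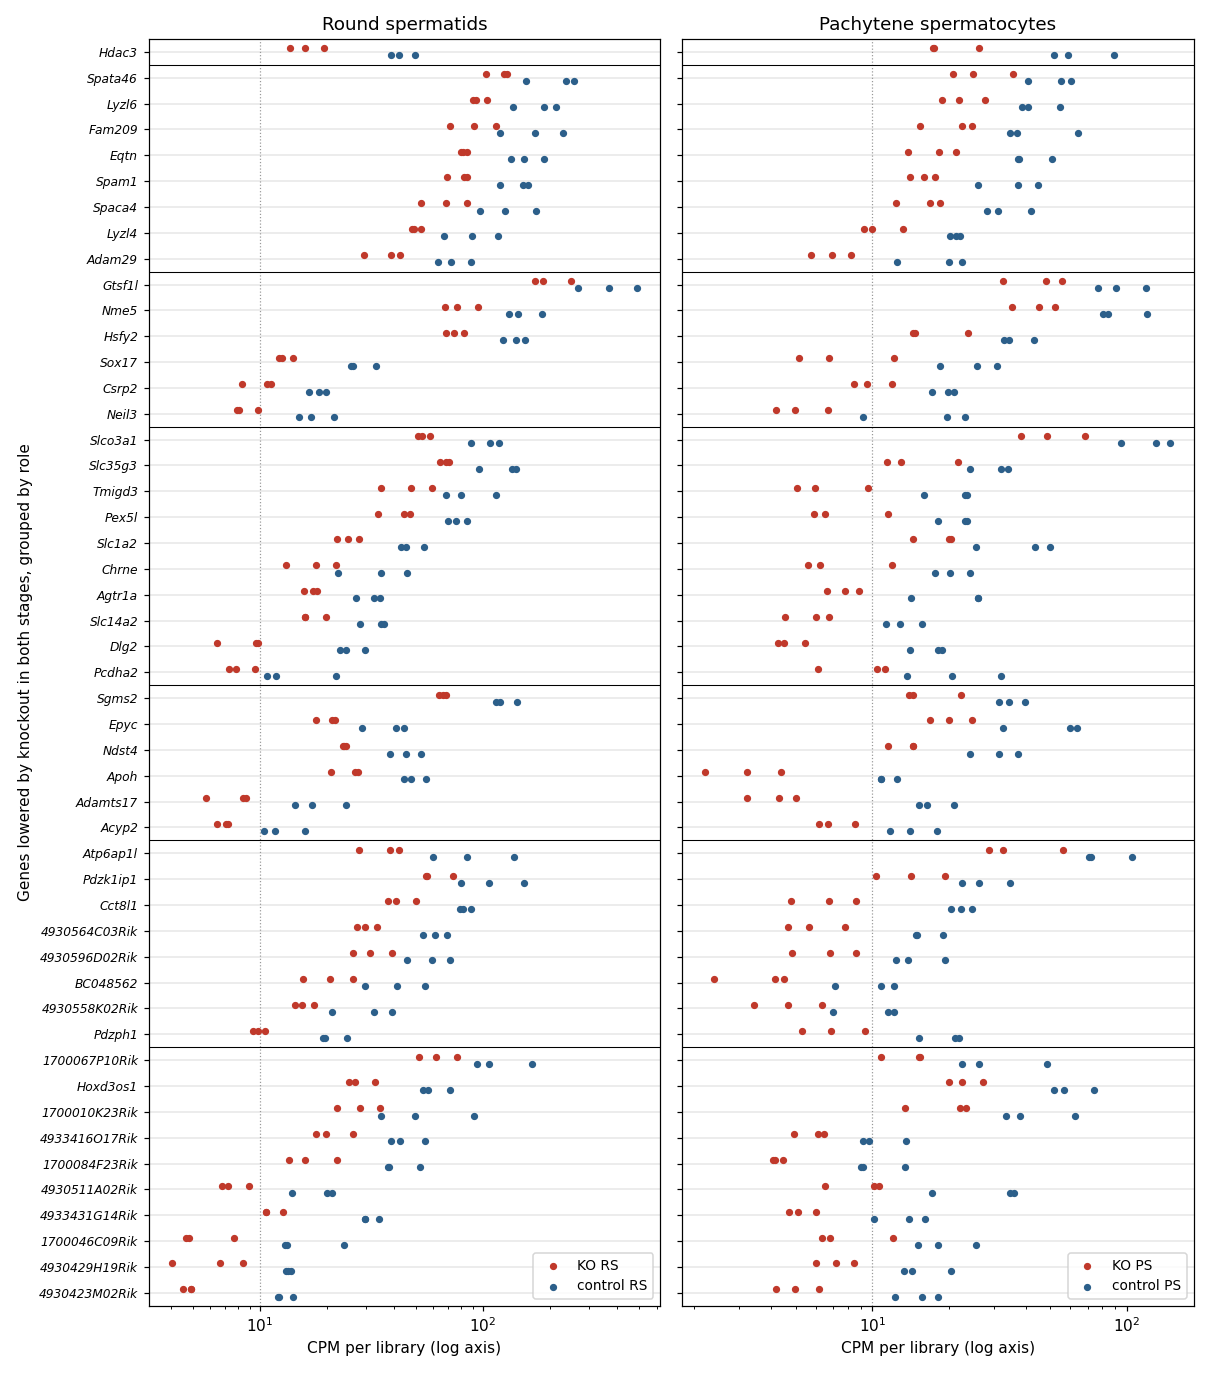
CPM of each of the 49 genes (rows, grouped by role, each group ordered by mean control level) in every library, on log axes, with round spermatids on the left and pachytene spermatocytes on the right; each row has 3 KO points and 3 control points. KO and control points do not overlap in any row, which the rule imposes, and the dotted line marks 10 CPM.

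Hdac3, the targeted gene (chromosome 18, 37936971 to 37955015, minus strand, coordinates here and below from RefSeq on GRCm38.p6), met the rule itself. It had 13.7, 15.98 and 19.4 CPM in KO RS, against 38.9, 42.3 and 49.7 CPM in control RS. In PS it had 17.4, 17.5 and 26.3 CPM in KO, against 58.9, 51.5 and 88.9 CPM in control. The 3 KO libraries of each stage were below its 3 control libraries, at control-to-KO ratios of 2.66 in RS and 3.26 in PS. Counts cover the whole gene, and which exons Cre removes is not stated in the labels.

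Of the 49 genes, 8 belong to the acrosome, the sperm surface or the sperm head. Their ratios were 1.81 to 2.01 in RS and 1.92 to 2.63 in PS. The rule cuts off ratios under 1.8, and 30 of all 49 RS ratios were under 2, so nothing is read from their closeness. Spam1 (chromosome 6, 24791188 to 24801048), the hyaluronidase PH-20 anchored on the sperm surface, had 84.6, 82.1 and 68.98 CPM in KO RS, against 151, 159 and 119 CPM in control RS. In PS it had 14.03, 16.01 and 17.6 CPM in KO, against 37.2, 44.6 and 26.1 CPM in control. All 3 KO RS libraries of Spam1 were still above its 3 control PS libraries, a pattern shared by the other genes of this group. Eqtn (chromosome 4, 94875697 to 94929953), equatorin of the acrosomal membrane, had 81.3, 85.1 and 80.05 CPM in KO RS, against 133, 188 and 152 CPM in control RS, and 13.8, 18.4 and 21.3 CPM in KO PS, against 37.8, 50.7 and 37.4 CPM in control PS. Its KO RS libraries were within a few CPM of each other, while its control RS libraries spread more widely. Spaca4 (chromosome 7, 45725107 to 45725816), a small single-exon gene for an acrosomal membrane protein, had 68.3, 84.5 and 52.9 CPM in KO RS, against 96.9, 174 and 125 CPM in control RS. Spaca4 in PS had 12.4, 16.9 and 18.5 CPM in KO, against 28.2, 41.98 and 31.2 CPM in control.

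Lyzl6 (chromosome 11, 103631068 to 103638890) and Lyzl4 (chromosome 9, 121577841 to 121642121) encode lysozyme-like proteins of sperm. Lyzl6 had 93.1, 104 and 90.1 CPM in KO RS, against 137, 212 and 187 CPM in control RS, and 18.8, 21.9 and 27.7 CPM in KO PS, against 38.6, 54.7 and 40.9 CPM in control PS. Lyzl4, 1 of the 2 genes with the TGACG core in the window printed above, had 48.2, 52.9 and 49.4 CPM in KO RS, against 66.6, 116 and 89.8 CPM in control RS, and 10.02, 9.27 and 13.2 CPM in KO PS, against 20.1, 21.3 and 22.2 CPM in control PS. Lyzl4 barely met the rule, at a ratio of 1.81 in RS, and its reads may be shared with the overlapping antisense gene Lyzl4os. Adam29 (chromosome 8, 55870912 to 55906964), a testis gene of the ADAM family of membrane proteins, had 38.8, 42.5 and 29.4 CPM in KO RS, against 71.9, 88.3 and 62.6 CPM in control RS. Adam29 in PS had 6.93, 5.75 and 8.26 CPM in KO, against 20.1, 22.4 and 12.5 CPM in control, and the remaining KO and control libraries were nearest to each other. Fam209 and Spata46 encode nuclear envelope proteins that the mouse needs for a normal sperm head. Fam209 (chromosome 2, 172472554 to 172474316) had 71.2, 114 and 91.7 CPM in KO RS, against 119, 228 and 170.3 CPM in control RS, and 15.4, 22.5 and 24.6 CPM in KO PS, against 34.9, 64.4 and 37.1 CPM in control PS. The Fam209 groups nearly met in RS, where the highest KO library and the lowest control library differed by a few CPM. Spata46 (chromosome 1, 170308819 to 170312125) had 103, 129 and 125 CPM in KO RS, against 156, 257 and 236 CPM in control RS, and 20.7, 24.8 and 35.6 CPM in KO PS, against 40.9, 60.3 and 54.9 CPM in control PS.

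Of these 8 genes, 5 (Spam1, Eqtn, Spaca4, Lyzl4 and Lyzl6) are also in a wider list of acrosome and perinuclear theca genes. The list has 54 genes in the tables, and these 5 are 10% of its 50 genes at 10 CPM or more in both controls. Of the 49 listed genes that are not members, 31 were called lower and 1 (Gopc) higher in KO RS, with a median log2 fold change of -0.69, and 20 were called lower and 0 higher in KO PS, with a median of -0.67 (edgeR; adjusted p below 0.05 for each call). Among the 7634 genes, 18% were called lower and 10.8% higher in KO RS, and 6.64% lower and 0.524% higher in KO PS, with medians of -0.20 and 0.0014. With the members included, 0 of the 54 were called higher in KO PS also by DESeq2 and by voom, and 1 had an unadjusted p below 0.05. With library size as the only scaling 15 of these 49 were called lower and 2 higher in KO RS. Leaving out 1 library at a time gave 11 to 33 lower in RS (11 without the remaining KO library, 16 without the remaining control library, 17 without control replicate 3, 18 without KO replicate 3) and 4 to 21 in PS (4 without KO replicate 3, 5 without KO replicate 1, 8 without control replicate 3). With a replicate block the counts were 45 lower and 2 higher (Gopc and Tex101) in RS, and 31 lower and 1 higher (Gopc) in PS. Without all 4 remaining libraries 0 were called in RS, with a median of -0.73. Adam29 was the sole member of the list of spermatid proteases and ubiquitin ligases (48 at 10 CPM or more), and Hdac3 of the nuclear receptor and retinoid list (19). The 8 other role lists, of 14 to 68 genes each, held 0 members, where members were 0.642% of the 7634 genes, so nothing is read from these counts. They cover 14 chromatin packaging genes, 24 post-meiotic regulators, 33 genes of the fibrous sheath and outer dense fibres, 68 of the axoneme and manchette, 35 of energy metabolism, 17 ion channels and transporters, 25 kinases and phosphatases and 38 meiotic prophase genes. Other lists also held genes called lower (edgeR, adjusted p below 0.05). Of 35 fibrous sheath and outer dense fibre genes tested, 17 were lower in KO RS and 18 in KO PS, with 0 higher. Of 52 spermatid proteases and ubiquitin ligases, Adam29 included, 25 were lower and 2 higher in RS, and 21 lower and 1 higher in PS. Of 70 axoneme and manchette genes, 27 were lower in RS and 14 in PS, with 0 higher. Of 51 meiotic prophase genes, 2 were lower and 21 higher in RS.

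Regulators and other intracellular proteins made up a group of 6 genes, with RS ratios of 1.803 to 2.18 and PS ratios of 1.94 to 3.27. Gtsf1l (chromosome 2, 163087031 to 163089601), a zinc-finger gene related to the piRNA pathway gene Gtsf1, had 171, 249 and 186 CPM in KO RS, against 267, 490.0 and 368 CPM in control RS. Its PS libraries had 32.7, 48.2 and 55.7 CPM in KO, against 77.1, 119 and 90.4 CPM in control. Replicate 3 was the highest library in both RS groups. Nme5 (chromosome 18, 34562634 to 34579152), a gene of the nucleoside diphosphate kinase family with a role in cilia and the sperm tail, had 76.9, 95.02 and 67.4 CPM in KO RS, against 130.5, 185 and 144 CPM in control RS, and 35.4, 52.4 and 45.1 CPM in KO PS, against 83.98, 120.0 and 80.3 CPM in control PS. Csrp2 (chromosome 10, 110920176 to 110939514), a LIM-domain protein gene, had 8.33, 10.8 and 11.2 CPM in KO RS, against 16.6, 19.9 and 18.3 CPM in control RS, and 8.44, 9.50 and 11.9 CPM in KO PS, against 19.8, 20.9 and 17.2 CPM in control PS. The other 3 were Hsfy2, a gene of the heat shock factor family, Sox17, an HMG-box transcription factor gene, and Neil3, a DNA glycosylase gene. Sox17 had 5.18, 6.75 and 12.2 CPM in KO PS, against 30.8, 25.8 and 18.4 CPM in control PS, a ratio of 3.11, and Neil3 had 4.19, 4.99 and 6.70 CPM in KO PS, against 19.6, 23.1 and 9.23 CPM in control PS, a ratio of 3.27. In both genes the remaining control PS library was the lowest of the 3 controls. Hsfy2 had a ratio of 1.86 in RS and 2.09 in PS.

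The module held 10 genes for receptors, transporters, adhesion proteins and channel partners, and several are better known from nerve, muscle or kidney than from the testis. Dlg2 (chromosome 7, 90476188 to 92449246), the synaptic scaffold PSD-93, had the largest mean log2 ratio of the module over both stages. It had 6.45, 9.84 and 9.64 CPM in KO RS, against 24.2, 29.5 and 22.8 CPM in control RS, a ratio of 2.95. In PS it had 4.25, 4.52 and 5.43 CPM in KO, against 18.8, 18.1 and 14.01 CPM in control, a ratio of 3.58. The KO libraries of Dlg2 stayed below 10 CPM at both stages, and every control library was above it. Slco3a1 (chromosome 7, 74275418 to 74554780), an organic anion transporter gene, had 51.03, 53.6 and 57.7 CPM in KO RS, against 118, 88.5 and 107 CPM in control RS, and 48.3, 38.4 and 68.5 CPM in KO PS, against 148, 129.6 and 94.3 CPM in control PS. Tmigd3 (chromosome 3, 105870858 to 105924044), a transmembrane immunoglobulin-domain gene that shares its locus with Adora3, had 35.02, 59.2 and 47.6 CPM in KO RS, against 68.3, 114 and 80.1 CPM in control RS. Its PS libraries had 5.07, 5.98 and 9.60 CPM in KO, against 15.9, 23.1 and 23.5 CPM in control, so its ratio was 1.85 in RS and 3.03 in PS. Pcdha2 (chromosome 18, 36939205 to 37187661), a neuronal protocadherin gene whose cluster shares exons, had 9.56, 7.30 and 7.85 CPM in KO RS, against 21.96, 11.8 and 10.8 CPM in control RS, and 10.4, 6.10 and 11.2 CPM in KO PS, against 31.9, 20.6 and 13.7 CPM in control PS. It was the gene nearest to the threshold, at 1.802 in RS, and lies 748 kb from Hdac3 on the same chromosome.

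The rest of this group, named after their values had been seen, had RS ratios of 1.83 for Slc35g3, of the nucleotide-sugar transporter family, 1.83 for Pex5l, a partner of HCN channels, and 1.90 for Slc1a2, a glutamate transporter. They were 1.94 for Chrne, a nicotinic acetylcholine receptor subunit, 1.84 for Agtr1a, an angiotensin II receptor, and 1.92 for Slc14a2, a urea transporter. The PS ratios were 1.96 for Slc35g3, 2.71 for Pex5l, 2.18 for Slc1a2, 2.61 for Chrne, 2.84 for Agtr1a and 2.30 for Slc14a2. Agtr1a differed most between the stages within this set, with 6.64, 7.80 and 8.86 CPM in KO PS, against 25.99, 26.01 and 14.2 CPM in control PS. The remaining replicate of control PS was the low one, as in Sox17 and Neil3.

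A further 6 genes encode secreted or matrix proteins and small or lipid enzymes. Adamts17 (chromosome 7, 66839699 to 67153171), a secreted metalloprotease gene, had the largest PS ratio of the 49, 4.20. It had 8.45, 5.73 and 8.66 CPM in KO RS, against 24.2, 14.4 and 17.1 CPM in control RS, and 5.01, 3.23 and 4.32 CPM in KO PS, against 20.9, 16.4 and 15.3 CPM in control PS. Apoh (chromosome 11, 108395297 to 108414396), the plasma protein beta-2-glycoprotein I, had 20.8, 27.7 and 26.8 CPM in KO RS, against 47.5, 55.5 and 44.4 CPM in control RS. Its PS libraries had 2.21, 3.23 and 4.39 CPM in KO, against 10.8, 10.8 and 12.5 CPM in control, where all 3 controls were close to the 10 CPM limit. Prkca overlaps Apoh on the opposite strand and was at a mean of 4.82 CPM in KO RS, against 3.99 CPM in control RS. The RS and PS ratios of the others were 1.90 and 2.08 for Sgms2, a sphingomyelin synthase, 1.90 and 2.30 for Ndst4, which modifies heparan sulfate, 1.87 and 2.53 for Epyc, a matrix proteoglycan, and 1.83 and 2.04 for Acyp2, an acylphosphatase. The 8 protein-coding genes with no assigned role had RS ratios of 1.83 to 2.61 and PS ratios of 1.91 to 3.34. Among them Cct8l1 (chromosome 5, 25516067 to 25518027), a chaperonin-like single-exon gene whose promoter is printed above, had 37.7, 50.3 and 40.7 CPM in KO RS, against 79.04, 88.5 and 81.3 CPM in control RS, and 6.75, 4.81 and 8.63 CPM in KO PS, against 20.4, 24.6 and 22.3 CPM in control PS.

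The median ratio of the 10 long non-coding RNAs was 2.28 in RS, beside 1.93 for the 49 genes together, and 2.42 in PS, beside 2.35. These ratios selected the genes, so nothing is read from the difference. 1700046C09Rik (chromosome 11, 14560336 to 14599225) had 4.69, 7.70 and 4.82 CPM in KO RS, against 12.9, 23.9 and 13.2 CPM in control RS, and 6.81, 12.02 and 6.33 CPM in KO PS, against 18.1, 25.6 and 15.1 CPM in control PS. Replicate 3 was the highest library of 1700046C09Rik in all 4 groups. 4933431G14Rik (chromosome 6, 72120213 to 72123197) had 10.6, 12.7 and 10.6 CPM in KO RS, against 29.5, 34.3 and 29.6 CPM in control RS, and 4.72, 5.10 and 6.03 CPM in KO PS, against 13.9, 16.1 and 10.1 CPM in control PS. Its RS libraries were tightly grouped within each genotype, and its reads may be shared with the overlapping gene St3gal5. 4930423M02Rik (chromosome 4, 5632328 to 5642284) had 4.52, 4.92 and 4.91 CPM in KO RS, against 12.1, 14.03 and 12.2 CPM in control RS, and 4.19, 6.16 and 4.99 CPM in KO PS, against 15.7, 18.2 and 12.3 CPM in control PS. 4930511A02Rik (chromosome 12, 11438233 to 11444812) had 6.75, 8.97 and 7.23 CPM in KO RS, against 19.9, 21.2 and 13.98 CPM in control RS, and 6.52, 10.6 and 10.2 CPM in KO PS, against 36.1, 34.7 and 17.2 CPM in control PS. The remaining control library of 4930511A02Rik was the lowest control at both stages. The share of long non-coding RNAs was 20.4% of the 49 genes (10 of 49), beside 2.90% of the genes at 10 CPM or more in both controls. No function was assigned to these 10 RNAs. Hoxd3os1 had 25.2, 32.7 and 26.7 CPM in KO RS, against 53.99, 71.5 and 56.5 CPM in control RS, and overlaps Hoxd3, Hoxd4 and Hoxd8 on the opposite strand. Hoxd3 and Hoxd4 had means of 0.647 and 1.33 CPM in KO RS, against 0.520 and 0.558 CPM in control RS. Hoxd8 had a mean of 52.8 CPM in KO RS, against 65.04 CPM in control RS. Hoxd8 was called lower there (log2 fold change -0.56, adjusted p = 0.0281, edgeR). In PS Hoxd8 had a mean of 41.3 CPM in KO, against 44.2 CPM in control, with no call (-0.076, adjusted p = 0.867, edgeR). Hoxd3os1 had means of 23.3 CPM in KO PS and 60.8 CPM in control PS. Whether reads of Hoxd3os1 and Hoxd8 were shared was not tested.

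**Figure D3:**
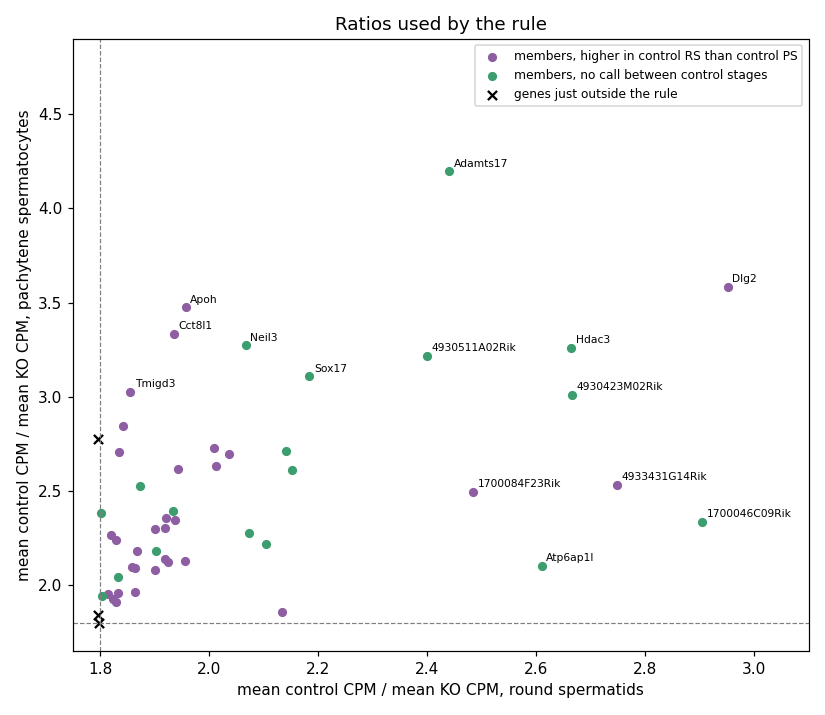
Ratio of mean control to mean KO CPM in round spermatids (x axis) and in pachytene spermatocytes (y axis) for the 49 genes and for the 3 genes just outside the rule; dashed lines mark the threshold of 1.8. Most points crowd against the RS threshold, with 30 of 49 RS ratios under 2, against 7 of 49 PS ratios.

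The threshold cut through a continuous range of ratios. Just inside it, the smaller ratio was 1.802 for Pcdha2, 1.803 for Csrp2 and 1.814 for Lyzl4. Just outside, it was 1.798 for Efcab9, a gene of the CatSper calcium channel complex of sperm, and 1.795 for both Bcas1 and 4930404N11Rik. Efcab9 had 67.8, 91.5 and 90.1 CPM in KO RS, against 107, 175.5 and 165.9 CPM in control RS, and 14.6, 22.1 and 24.0 CPM in KO PS, against 28.2, 44.1 and 36.9 CPM in control PS. Its libraries were separated at both stages, which was required: the genes given as just outside had to meet every other condition of the rule.

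The step between the stages did not choose the genes, apart from the limit of 10 CPM in both controls, although it uses the same libraries. In edgeR, 31 of the 49 genes (63.3%) were higher in control RS than in control PS at an adjusted p below 0.05, where 29.2% of all genes tested were called higher and 28.2% lower. Of the 7634 genes at 10 CPM or more, 27.5% were called higher and 26.8% lower. No member was called lower in control RS: the count was 0 in edgeR, 0 at an unadjusted p below 0.05, and 0 in DESeq2 and in voom. In KO cells 32 of the 49 (65.3%) were higher in KO RS than in KO PS, where 31% of all genes tested were called higher and 26.5% lower, and 0 members were lower, again with 0 at an unadjusted p below 0.05, 0 in DESeq2 and 0 in voom. Of the 7634 genes at 10 CPM or more, 23.3% were called higher and 32.0% lower in KO RS than in KO PS. All 31 genes called in controls were also called in KO. Apart from scaling, a gene's KO step is its control step shifted by the difference between its log2 control-to-KO ratios in PS and RS. The rule bounds both ratios from below, so nothing is read from the likeness of the steps in the genotypes. The additional gene called in KO was Adamts17, with 0.77 on the log2 scale (SE 0.30, adjusted p = 0.0448, edgeR). The call of Adamts17 was lost in DESeq2 (adjusted p = 0.0579), in voom (0.051), with no filter in edgeR (0.0545) and without the 4 remaining libraries (0.214). It was also lost without KO PS replicate 3 (adjusted p = 0.157, edgeR), KO RS replicate 1 (0.0993), the remaining KO PS library (0.102) or the remaining KO RS library (0.127). For 30 of the 31 every control RS library was above every control PS library, Chrne being the exception, and for all 31 every KO RS library was above every KO PS library.

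The steps fell into a tight upper cluster and a spread lower one. For 23 genes the log2 fold change of control RS over control PS was between 2.05 and 2.34, and in KO RS over KO PS it was between 1.79 and 2.86. This cluster held all 8 genes of the acrosome, sperm surface and sperm head. Their steps were 2.12 to 2.32 in controls and 1.99 to 2.32 in KO. Steps of this size were not particular to the members. The median control step was 2.15 in the acrosome list, members included, and 2.17 in the fibrous sheath list. It was 2.11 in the chromatin packaging list and 2.07 in the spermatid protease list. In the other role lists it ran from -0.22 (meiotic prophase genes) to 0.90 (post-meiotic regulators). Spam1 changed by 2.19 on the log2 scale (SE 0.26, adjusted p = 3.19e-05, edgeR) in controls and by 2.22 on the log2 scale (SE 0.18, adjusted p = 7.55e-06, edgeR) in KO. Lyzl4 changed by 2.32 on the log2 scale (SE 0.22, adjusted p = 1.04e-05, edgeR) in controls and by 2.12 on the log2 scale (SE 0.18, adjusted p = 9.68e-06, edgeR) in KO. The largest control steps were those of Apoh, at 2.33 on the log2 scale (SE 0.19, adjusted p = 5.42e-06, edgeR), Lyzl4 and Tmigd3, at 2.30 on the log2 scale (SE 0.24, adjusted p = 1.58e-05, edgeR), and the 2 genes Apoh and Tmigd3 also had the largest KO steps, 2.86 for Apoh and 2.70 for Tmigd3. Below the cluster, 3 genes lay between 1 and 2 (4930558K02Rik, 4933431G14Rik and Slc14a2), and 23 genes lay between -0.48 and 0.94, of which 5 were called higher: Nme5, at 0.90 on the log2 scale (SE 0.23, adjusted p = 0.00508, edgeR), Chrne, Dlg2, at 0.80 on the log2 scale (SE 0.23, adjusted p = 0.0112, edgeR), Ndst4 and Agtr1a. The call of Agtr1a was marginal, at 0.70 on the log2 scale (SE 0.28, adjusted p = 0.0458, edgeR), and it was lost without control RS replicate 1 (adjusted p = 0.0858, edgeR), without control RS replicate 3 (0.0967) and without the remaining control PS library (0.115). The call of Ndst4 was lost without the remaining control PS library (adjusted p = 0.052, edgeR). In KO the call of Dlg2, at 0.77 on the log2 scale (SE 0.26, adjusted p = 0.0242, edgeR), was lost without KO PS replicate 1 (adjusted p = 0.0814, edgeR), KO PS replicate 3 (0.071), KO RS replicate 3 (0.095) or the remaining KO RS library (0.0835).

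**Figure D4:**
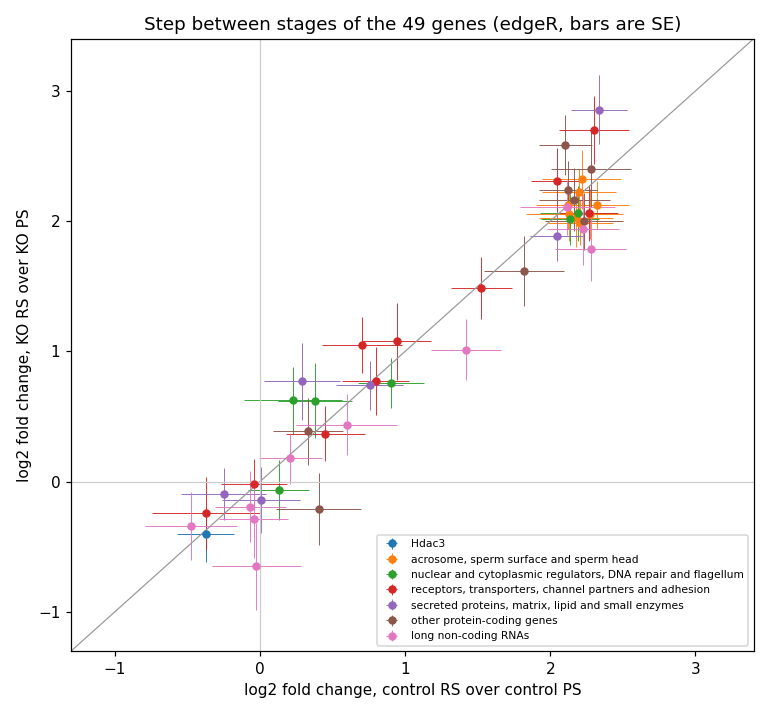
Log2 fold change between stages of the 49 genes, in controls (control RS over control PS, x axis) and in KO (KO RS over KO PS, y axis), from edgeR with standard errors as bars, coloured by role; the grey diagonal marks equal steps. A cluster of 23 genes lies between 2.05 and 2.34 in controls, and the remaining genes run down to -0.48. The rule bounds the control-to-KO ratio at both stages, so nearness to the diagonal is in part a result of the selection.

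The 18 genes with no call in either direction between control stages were Hdac3, Slco3a1, Slc1a2, Pcdha2, Sox17, Neil3, Csrp2, Epyc, Acyp2, Adamts17, Atp6ap1l, Pdzph1 and 6 of the long non-coding RNAs. Their control PS level was 76.3% to 160% of their control RS level, with a median of 110%. Hdac3 changed by -0.37 on the log2 scale (SE 0.20, adjusted p = 0.126, edgeR) and Slco3a1 by -0.044 on the log2 scale (SE 0.23, adjusted p = 0.88, edgeR) between control stages. With a replicate block, 36 genes were called higher in control RS, adding 1700010K23Rik, Atp6ap1l, Pdzph1, Slc1a2 and Sox17, and 3 were called lower, Hdac3 (adjusted p = 0.0182, edgeR), 4930511A02Rik (0.0124) and Pcdha2 (0.0479). In KO the block gave 35 higher and 1 lower, 1700046C09Rik (adjusted p = 0.0249, edgeR). The control-to-KO ratios, which the rule limits from below, are given as a description. The median ratio of the 31 genes was 1.92 in RS and 2.30 in PS, and that of the 18 genes was 2.12 in RS and 2.46 in PS.

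Spermatid RNA in the PS libraries moves with these results and its part in them was not tested. The 14 transcripts used as spermatid markers, such as Prm1 and Tnp1, were all detected in every group, and none of them is a member. Their summed level was 706 to 1731 CPM in KO PS, against 1975 to 4948 CPM in control PS. In RS it was 7982 to 21949 CPM in KO, against 12361 to 25362 CPM in control. Of the 14, 12 were called lower in KO PS and 3 in KO RS (edgeR, adjusted p below 0.05), with median log2 fold changes of -1.52 and -0.51. Over all genes tested 4.5% were called lower in KO PS and 12.4% in KO RS. For the 31 genes higher in control RS, the PS level was 13.1% to 56.4% of the RS level in KO, with a median of 22.8%, and 23.2% to 70.3% in controls, with a median of 26.3%. For the 14 marker transcripts it was 4.14% to 63.7% in KO, with a median of 8.13%, and 15.0% to 68.9% in controls, with a median of 20.9%. The 31 genes had the higher median in both genotypes, and the gap was wider in KO. For the 18 genes without a step call the KO PS level was 55.0% to 146% of the KO RS level, with a median of 99.7%.

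Markers of other cells and pachytene transcripts were also summed, and their part in the results was not tested. Of the KO and control ranges given here, only those of the macrophage markers in RS did not overlap. The 16 pachytene transcripts, as a check of the labelled stage, summed to 6521 to 6985 CPM in KO RS, against 6904 to 7952 CPM in control RS, and to 8895 to 9371 CPM in KO PS, against 9295 to 9625 CPM in control PS, all 16 being detected. The 21 Sertoli cell markers summed to 91.9 to 502 CPM in KO RS, against 75.3 to 130 CPM in control RS, and to 1029 to 2255 CPM in KO PS, against 633 to 1634 CPM in control PS. The 13 macrophage markers summed to 263 to 418 CPM in KO RS, against 82.7 to 103 CPM in control RS, and to 26.4 to 44.0 CPM in KO PS, against 25.8 to 52.9 CPM in control PS. The 16 peritubular and smooth muscle markers summed to 358 to 776 CPM in KO RS, against 449 to 514.5 CPM in control RS, and to 109 to 191 CPM in KO PS, against 183 to 291 CPM in control PS. In KO PS 3 of the 15 tested were called lower, with a median log2 fold change of -0.90 (edgeR, adjusted p below 0.05). Over all genes tested 4.5% were called lower there. No marker of these lists was at 0 in any group. The 12 Leydig cell markers summed to 82.8 to 289 CPM in KO RS, against 81.6 to 137 CPM in control RS, with Cyp11b1 at 0 in KO RS and in both PS groups. The 17 spermatogonial markers summed to 955 to 1063 CPM in KO RS, against 794 to 971 CPM in control RS, with Nanos2 at 0 in both PS groups. Called higher in KO RS were 11 of 13 macrophage, 8 of 16 spermatogonial, 3 of 17 Sertoli, 2 of 11 Leydig and 1 of 16 peritubular markers tested. Of the 16 pachytene transcripts 2 were called higher and 4 lower there. Over all genes tested 18.7% were called higher and 12.4% lower in KO RS (edgeR, adjusted p below 0.05 for each call). No member belongs to any of these marker lists.

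Libraries of the same number can be set side by side, and the difference was smallest in the remaining replicates of PS. The median ratio of control to KO over the 49 genes was 1.86 in RS replicate 1, 2.05 in RS replicate 3 and 1.98 in the remaining RS replicate. In PS it was 2.72 in replicate 1, 2.85 in replicate 3 and 1.68 in the remaining replicate, where the lowest ratio of any gene was 1.22. All of the single-replicate ratios were above 1, which the separation of the libraries imposes.

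Genes beside the members were called in both directions in KO RS. Within 100 kb of 36 members lay 53 nearest tested genes that are not members and do not overlap one. Of these, 13 were called lower (24.5%) and 6 higher (11.3%) in KO RS, and 6 were called lower (11.3%) and 0 higher in KO PS, by edgeR at an adjusted p below 0.05. Over all genes tested the shares were 12.4% lower and 18.7% higher in KO RS, and 4.5% lower and 0.91% higher in KO PS. Among the 7634 genes they were 18% lower and 10.8% higher in KO RS, and 6.64% lower and 0.524% higher in KO PS. The difference from these shares was not tested. The count of higher genes in KO PS was also 0 in DESeq2 and voom, and 4 with the replicate block, which gave 12 lower. In RS the block gave 19 lower and 13 higher, and library size as the only scaling gave 5 lower and 12 higher. Of the 53, 5 were called lower at both stages. Hyal5, another sperm hyaluronidase gene, lies 56.9 kb from Spam1 and changed by -1.08 in KO RS (adjusted p = 0.00455, edgeR) and by -1.06 in KO PS (adjusted p = 0.014, edgeR). Its mean was 90.7 CPM in KO RS, against 159 CPM in control RS, and 19.98 CPM in KO PS, against 42.2 CPM in control PS. The other 4 were Ccer1 next to Epyc, Cep112 next to Apoh, Haglr next to Hoxd3os1 and 4930505A04Rik next to Acyp2. Leaving out 1 library at a time gave 5 to 16 lower in RS and 2 to 7 lower in PS. The lower counts were 5 without the remaining KO RS library, 8 without the remaining control RS library, 7 without control RS replicate 3, 2 without KO PS replicate 1, 3 without KO PS replicate 3 and 3 without control PS replicate 3. Without all remaining libraries the counts in RS were 0 lower and 0 higher.

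**Figure D5:**
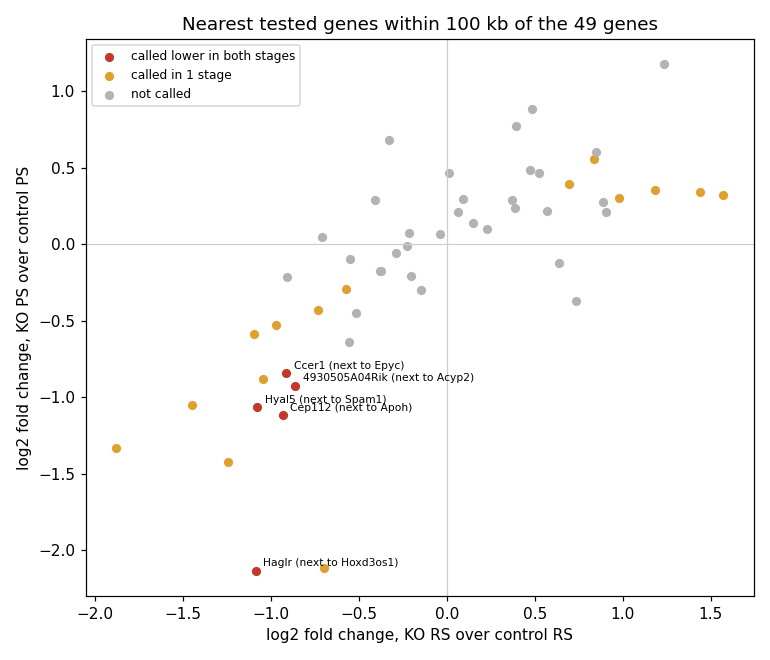
Log2 fold change of KO over control in round spermatids (x axis) and pachytene spermatocytes (y axis) for the 53 nearest non-overlapping tested genes within 100 kb of a member, coloured by whether edgeR called them at an adjusted p below 0.05. The 5 genes called lower at both stages are labelled with the member beside them.

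Members themselves were seldom neighbours. The closest were the non-coding RNAs 1700084F23Rik and 4933416O17Rik on chromosome 13, 40.6 kb apart on opposite strands. 1700084F23Rik had 22.1, 15.9 and 13.6 CPM in KO RS, against 37.5, 52.4 and 38.1 CPM in control RS, and 4933416O17Rik had 26.2, 19.9 and 17.9 CPM in KO RS, against 38.7, 55.2 and 42.5 CPM in control RS. In both, replicate 1 was the highest KO RS library and replicate 3 the highest control RS library. Apart from Hdac3 and Pcdha2, the closest pairs on the same chromosome were Chrne with Slc35g3 (853 kb) and 4930429H19Rik with Slco3a1 (960 kb). In the gene models of the members, the largest number of exons in any transcript had a median of 5, beside 10 in the genes at 10 CPM or more. The median gene span was 19503 bases, beside 25217, and the longest was 1973059 bases (Dlg2). Long non-coding RNAs were 20.4% of the members, beside 2.90%, and their part in these medians was not tested. Of the 48 genes with a model, 4 had a single exon (8.33%, beside 2.41%): Cct8l1, Gtsf1l, Hsfy2 and Spaca4. There were 9 members that overlap other tested genes, 11 in all. Since the labels do not state the strand setting of the counting, the counts of these members are uncertain. Of these 11, 4 were called lower and 1 higher in KO RS, and 2 lower and 0 higher in KO PS (edgeR). Fam83e, which overlaps Spaca4, was called lower at both stages, at -0.74 in KO RS (adjusted p = 0.0102, edgeR) and -0.79 in KO PS (adjusted p = 0.0447, edgeR). 4930544D05Rik overlaps Chrne on the opposite strand. Its mean was 5.08 CPM in KO PS, against 19.2 CPM in control PS (log2 fold change -1.895, adjusted p = 0.00849, edgeR). In RS its mean was 80.01 CPM in KO, against 102 CPM in control, with no call (-0.65, adjusted p = 0.135, edgeR). Chrne had means of 17.65 CPM in KO RS and 34.3 CPM in control RS. Whether reads of 4930544D05Rik and Chrne were shared was not tested.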

How the data were processed

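Total RNA of 12 libraries was sequenced from strand-specific TruSeq libraries, per the labels' protocols. The authors aligned with HISAT2 2.1.0 to mm10 and counted with HTSeq, per the submitters' processing notes, which also name DESeq2. They deposited 1 table per stage with raw counts of 21429 genes, a log2 fold change and an adjusted p-value of KO against control. The tables' 12 columns of normalized values went unused. In each group 1 column was tied to the group and to no sample title.

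Members were found on CPM, the count as a share of the column total. The quasi-likelihood test of edgeR 4.0.16 (R 4.3.3) with TMM scaling, the filterByExpr filter and Benjamini-Hochberg adjustment (threshold 0.05) was fitted on all genes, with 6 libraries a comparison. It was also run on simulated counts with a common dispersion and independent libraries. That run does not cover the shared deviations of same-numbered libraries given below. Alternatives used DESeq2 1.42.0, voom in limma 3.58.1, other scalings, no filter, a replicate block and left-out libraries. Same-numbered libraries deviated together (correlation 0.134 to 0.495), which was taken to pair the samples: replicates 1 and 3 by label, the remaining ones by elimination. Libraries of unlike number had correlations of -0.478 to 0.199, so the ranges overlap. The main fit left the pairing out, and the replicate block is the alternative that uses it. The lowest chi-square per gene between replicates was 16.6.

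The members and lists were chosen with earlier results of these data known. Named genes were Hdac3, up to 4 members per role list by control level, the 8 largest mean log2 ratios, the 6 highest control levels, the 3 largest steps and the 3 genes on either side of the threshold. Roles were assigned after the members were known. Samples share no stated culture or litter, and p-values reflect the spread between these libraries. Exact floors cover counting error only.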

Additional observations from a re-analysis of the deposited data

How the results depend on the processing

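The number of genes that met the rule was 49 and depended on its settings. It was 168 with TMM scaling and 207 with DESeq2 size factors (48 of the 49 in each), 88 with a minimum of 5 CPM, 28 with 20 CPM, 245 with a ratio of 1.5 and 18 with a ratio of 2. Allowing overlap gave 56, and leaving out the 4 remaining libraries gave 64, of which 40 were among the 49. Leaving out 1 library gave 32 to 81: 81 without KO RS replicate 3, 80 without control RS replicate 1 and 32 without control RS replicate 3, with 48, 45 and 27 of the 49.

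Members higher in control RS numbered 29 to 32 and in KO RS 30 to 33 when 1 library was left out. Members lower numbered 0 to 1 in both: 4930511A02Rik was lower in control RS without the remaining control PS library, and 1700046C09Rik in KO RS without the remaining KO PS library or without KO RS replicate 3. With library size only 1 member (Hdac3) was lower in control RS. The replicate block gave 3 lower in control RS and 1 in KO RS, as stated above, and 49 members called lower in KO PS. That last count was 20 to 47 when 1 library was left out, with 21 without KO PS replicate 1, 25 without KO PS replicate 3 and 20 without control PS replicate 3. In KO RS it was 41 to 49, and 0 without the remaining libraries. The causes were not tested.

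Of 286 recomputed steps between control RS and control PS of the 22 named members, 272 kept direction and call, 5 gained a call and 9 changed sign. In KO the calls of Adamts17 and Dlg2 were lost as stated above, and that of Dlg2 also without the remaining libraries (adjusted p = 0.112, edgeR). These 9 were small steps without a call. When 1 library was left out, the log2 step between control stages was -0.27 to 0.072 for 4930423M02Rik, highest without control PS replicate 3, and -0.40 to 0.22 for 1700046C09Rik. 1700046C09Rik stood at 0.22 without control PS replicate 3, 0.12 without control RS replicate 1 and 0.14 without the remaining control RS library. It was -0.27 to 0.13 for Slco3a1, at 0.13 without control PS replicate 1 and 0.05 without control RS replicate 3. It was -0.80 to 0.021 for Pcdha2, highest without control PS replicate 1. Csrp2 ranged over -0.015 to 0.19, lowest without the remaining control PS library, and was at -0.080 with library size only.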
